A study of Lemna gibba with 6 samples.

Results

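Glutamine synthetase (GS) and glutamate synthase (GOGAT) genes were examined in the duckweed Lemna gibba grown on inorganic or on organic nitrogen. The members were taken by annotation from the reaction network of the study's carbon flux model: 4 genes annotated as glutamate-ammonia ligase (GS) and 2 annotated as glutamate synthase. All 6 were among the 16340 genes of the expression table. Clone G3 7742a was cultured axenically under continuous light, and every culture received glucose at 5 g/L, so that each comparison was made between mixotrophic plants. The inorganic nitrogen source (INS) consisted of 12.4 mM nitrate and 1.3 mM ammonium, and the organic nitrogen source (ONS) of 6.85 mM glutamine, with no nitrate or ammonium added. Polyadenylated RNA from frond tissue was sequenced in 3 biological replicates per condition. The clone is a single genotype, and the RNA is a mixture of all cells of the harvested plants. Fewer cells of a type and less RNA per cell therefore cannot be told apart. The paper reports that roots made up a larger fraction of dry weight under ONS than under INS, and that roots were not analyzed apart from green matter. Of 15 genes annotated as RuBisCO, the carbon-fixing enzyme of green tissue, 6 were among the 100 highest means of both conditions.

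GS joins ammonium to glutamate and so forms glutamine, and GOGAT transfers the amide group of glutamine to 2-oxoglutarate and so returns glutamate. The cycle of both enzymes is the main route by which plants bring ammonium into amino acids. In angiosperms a chloroplast form of GS handles ammonium from nitrite reduction and photorespiration, and cytosolic forms take up or recycle ammonium in other tissues and during nitrogen transport. Ferredoxin-dependent GOGAT (Fd-GOGAT) is the main form of green leaves, and the NADH-dependent form (NADH-GOGAT) is known mainly from non-green and vascular tissue. Glutamine is thus a product of GS, a substrate of GOGAT and, in the ONS medium, the nitrogen source supplied.

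The deposited values are normalized read counts, averaged over the 3 libraries of a condition. No value per library stands beside these averages. For genes with low means the whole reads of each library could be worked back from the average, which gave an estimated 8324792 to 35807286 reads per library. The 3 libraries of one condition had Spearman correlations of 0.909 to 0.967 across genes, and libraries of different conditions of 0.793 to 0.927. The deepest INS library stood apart, at 0.793 to 0.887 with the ONS libraries, where the other INS libraries reached 0.889 to 0.927. The means of the GS and GOGAT genes were too high to be worked back in this way, with the exception of 1 gene in 1 condition. No member therefore had an error or a test for its change between conditions, and the differences given here are of means of n = 3 libraries. Normalized read counts are not divided by transcript length, so levels of different genes, their ranks and their shares are in counts of reads and not in counts of transcripts. The fold change between conditions in the ratio of 2 genes does not depend on length. The size of a share or of a sum of several genes, and of its change, does. Reads shared by similar GS copies could be assigned to either, and how such reads were treated is not given in the sources used here.

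The chloroplast GS and Fd-GOGAT had the highest read counts of their enzymes and were slightly higher on glutamine. One cytosolic GS and NADH-GOGAT were lower on glutamine, by 2.02-fold and 1.64-fold, and a second cytosolic GS was nearly level. The smallest member by count, a GS most similar to the fluG protein, was 1.60-fold higher on glutamine. Relative to the other copy or copies of the same enzyme, the chloroplast GS and Fd-GOGAT thus held a larger share of reads under ONS. So did the fluG-like GS, with 1.47% of the GS sum under INS and 1.98% under ONS.

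**Figure D1:**
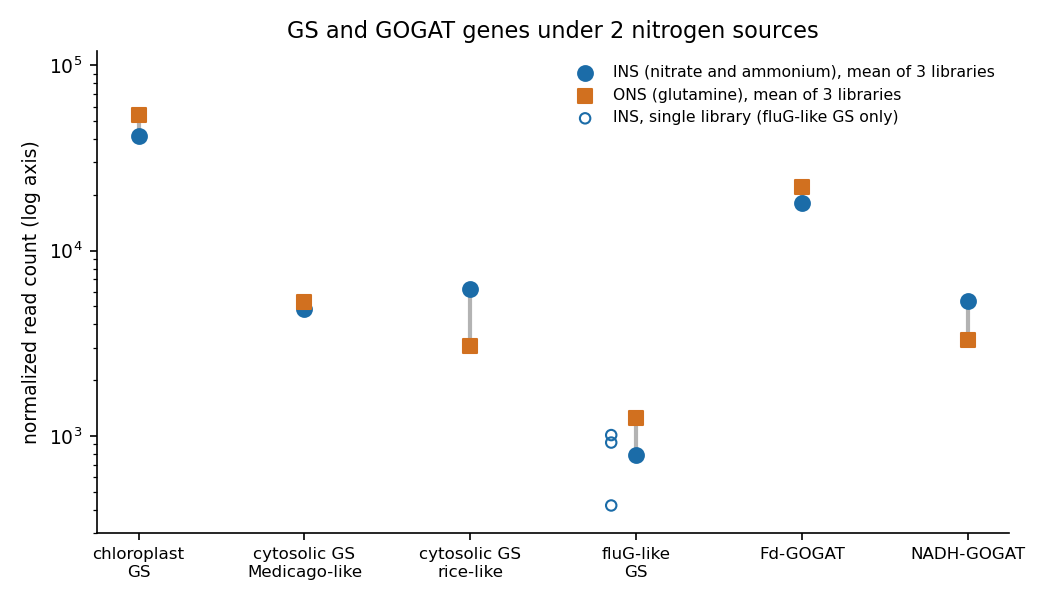
Normalized read counts (log axis) of the 4 GS and 2 GOGAT genes, with filled circles for the INS mean and squares for the ONS mean of 3 libraries each, and open circles for the single INS libraries of the fluG-like GS. The rice-like cytosolic GS and NADH-GOGAT are the 2 genes whose INS mean lies above the ONS mean.

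Among the GS genes, LEMGIv51_A5_013274_1 is annotated as the chloroplastic leaf isozyme. Its mean normalized read count was 41603 under INS and 53707 under ONS. It was 1.29-fold higher under ONS, a log2 ratio of 0.37. By count it ranked 28 of 16340 genes under INS and 15 under ONS. Its reads made up 0.223% of all normalized counts under INS and 0.294% under ONS. Of the 3627 genes with a mean of at least 1000, 17.0% had a higher ratio of ONS to INS.

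The gene LEMGIv51_A5_004150_1, here the rice-like cytosolic GS, is annotated as an isozyme similar to the rice GS1;1, which in rice takes part in reusing ammonium in mature leaves. Its mean normalized read count was 6215 under INS and 3073 under ONS. The log2 ratio was -1.02, so it was 2.02-fold higher under INS. It ranked 497 under INS and 1091 under ONS. Only 4.74% of the genes with a mean of at least 1000, 172 genes, had a lower ratio. When the counts were scaled to the sum of all genes instead of by size factors, the log2 ratio was -0.98 and the gene was no longer more than 2-fold apart. The counting error alone allowed a log2 ratio of -1.06 to -0.97 (95% interval, widest possible split of the reads over the libraries), which also spans the 2-fold limit.

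The Medicago-like cytosolic GS, LEMGIv51_A5_021303_1, is named here after the isozyme it resembles. Its mean was 4832 under INS and 5254 under ONS, a ratio of 1.09 and a log2 ratio of 0.12. It ranked 666 and 603. This was the smallest difference between conditions among the 6 genes. In normalized read counts the order of the 2 cytosolic genes switched: the rice-like gene had 1.29 times the counts of the Medicago-like gene under INS and 0.585 times under ONS. Their ratio thus changed 2.20-fold, while their sum was 11046 under INS and 8327 under ONS, a ratio of 0.754. This sum leaves out the fluG-like GS, which is also annotated as cytosolic.

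The gene LEMGIv51_A5_010281_1 is annotated as a cytosolic isozyme similar to one of soybean, and its closest named protein is fluG. In the fungus Aspergillus nidulans, fluG carries a GS-like domain and is needed for asexual sporulation. What the protein does in duckweed is not given in the sources used here. Its mean was 784 under INS and 1252 under ONS, a log2 ratio of 0.68. It ranked 4544 and 2882. Of the genes with a mean of at least 1000, 4.16% had a higher ratio. Its INS mean could be split into single libraries, with 584, 1134 and 451 reads from the deepest to the shallowest library. These are normalized read counts of 421, 921 and 1010, with a mean of 784 ± 317 (SD, n = 3). The deepest INS library was thus the low one, below the normalized counts of the other libraries, and the ONS mean lay above all 3. Without that library the log2 ratio was 0.38, and without each of the other INS libraries it was 0.81 and 0.90. The coefficient of variation was 40.5%, and 8.71% of 3147 genes with recovered reads and an INS mean no lower than 300 had a larger one. The lowest INS value was in that library for 36.2% of those genes. The ONS mean is given by 30 different sets of reads, so its libraries cannot be separated.

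The 4 GS genes together had 53433 normalized reads under INS and 63286 under ONS, a ratio of 1.18. The chloroplast gene held 77.9% of this sum under INS and 84.9% under ONS. The share of the rice-like gene was 11.6% under INS and 4.86% under ONS, that of the Medicago-like gene was 9.04% and 8.30%, and that of the fluG-like gene 1.47% and 1.98%. Nearly the whole gain of the chloroplast gene in share was thus matched by the lower share of a single cytosolic gene. Shares of one sum are bound to each other, and the counts themselves differed unequally. The difference, ONS minus INS, was 12104 for the chloroplast gene and -3142 for the rice-like gene. The chloroplast gene had 6.69 times the counts of the rice-like gene under INS and 17.5 times under ONS, a 2.61-fold change. Against the rice-like and Medicago-like genes together the ratio was 3.77 and 6.45, a 1.71-fold change. Leaving the fluG-like gene out of the sum gave the chloroplast gene 79.0% and 86.6%, and the rice-like gene 11.8% and 4.95%.

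**Figure D2:**
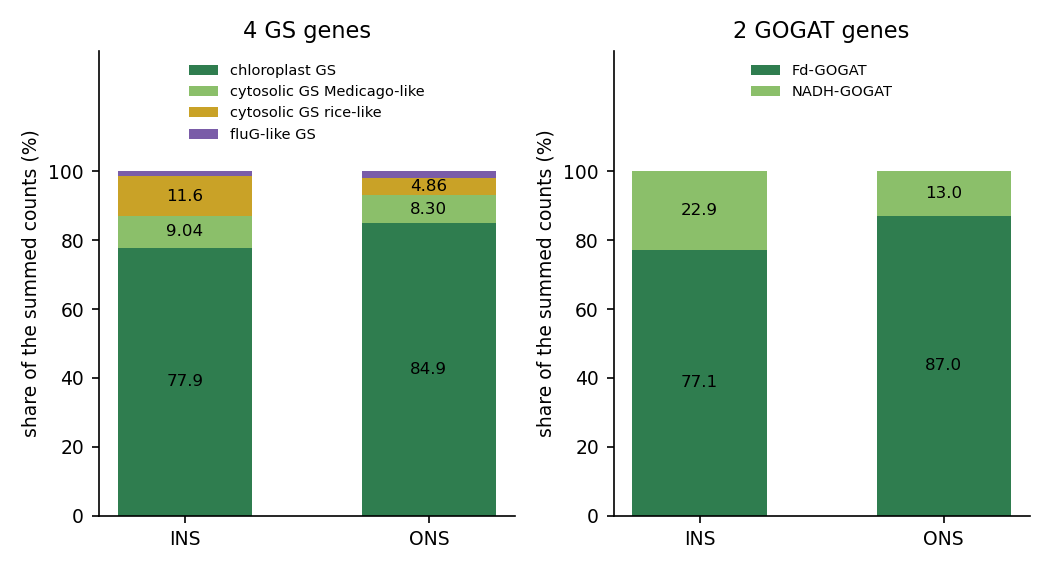
Share (%) of the summed normalized read counts held by each of the 4 GS genes (left) and the 2 GOGAT genes (right) under INS and ONS, from the means of 3 libraries and not divided by transcript length. The chloroplast GS goes from 77.9% to 84.9% and Fd-GOGAT from 77.1% to 87.0%.

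Of the glutamate synthases, Fd-GOGAT (LEMGIv51_A5_013691_1) draws its electrons from photosynthetically reduced ferredoxin in green cells. Its mean normalized read count was 18024 under INS and 21964 under ONS. The ratio was 1.22 and the log2 ratio 0.29. It ranked 123 and 90 by count. Of the genes with a mean of at least 1000, 22.9% had a higher ratio.

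NADH-GOGAT (LEMGIv51_A5_013918_1) is annotated by its similarity to Arabidopsis GLT1, a plastid enzyme. Its mean was 5364 under INS and 3281 under ONS, a log2 ratio of -0.71, so that it was 1.64-fold higher under INS. It ranked 591 and 1010. A lower ratio was found in 8.74% of the genes with a mean of at least 1000, 317 genes.

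The 2 GOGAT genes together differed little, with 23389 normalized reads under INS and 25244 under ONS, a ratio of 1.08. Their division differed more. Fd-GOGAT held 77.1% of the sum under INS and 87.0% under ONS, and NADH-GOGAT 22.9% and 13.0%. The ratio of Fd-GOGAT to NADH-GOGAT was 3.36 under INS and 6.70 under ONS, a 1.99-fold change.

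Across the enzymes, the chloroplast GS and Fd-GOGAT kept nearly the same ratio, 2.31 under INS and 2.45 under ONS. The sum of GS to the sum of GOGAT was 2.28 and 2.51. The 2 genes that were higher under INS, the rice-like gene and NADH-GOGAT, had a ratio of 1.16 and 0.937. All 6 genes together had 76822 normalized reads under INS and 88531 under ONS, a ratio of 1.15, while the sum over all genes had a ratio of 0.978.

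Set against all genes, 1 of the 6 members was more than 2-fold apart, the rice-like gene on the lower side, and no member was more than 4-fold apart. Of the 15249 genes with a mean of at least 10, 7.29% were more than 2-fold lower and 2.98% more than 2-fold higher under ONS, together 10.3%. More than 4-fold apart were 2.52%, with 2.22% lower and 0.295% higher. Among the 3627 genes with a mean of at least 1000, which are closer to the members in level, 4.94% were more than 2-fold lower and 1.1% more than 2-fold higher, together 6.04%. Those more than 4-fold apart were 1.16%, with 1.08% lower and 0.0827% higher. The quartiles of the log2 ratio of those highly expressed genes were -0.28 and 0.26, and the median was 0.0047. The Medicago-like gene lay inside this range, Fd-GOGAT and the chloroplast GS lay just above it, and the fluG-like gene was above the 95th percentile of 0.64. At the lower end NADH-GOGAT was between the quartile and the 5th percentile of -0.99, and the rice-like gene was below that percentile.

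**Figure D3:**
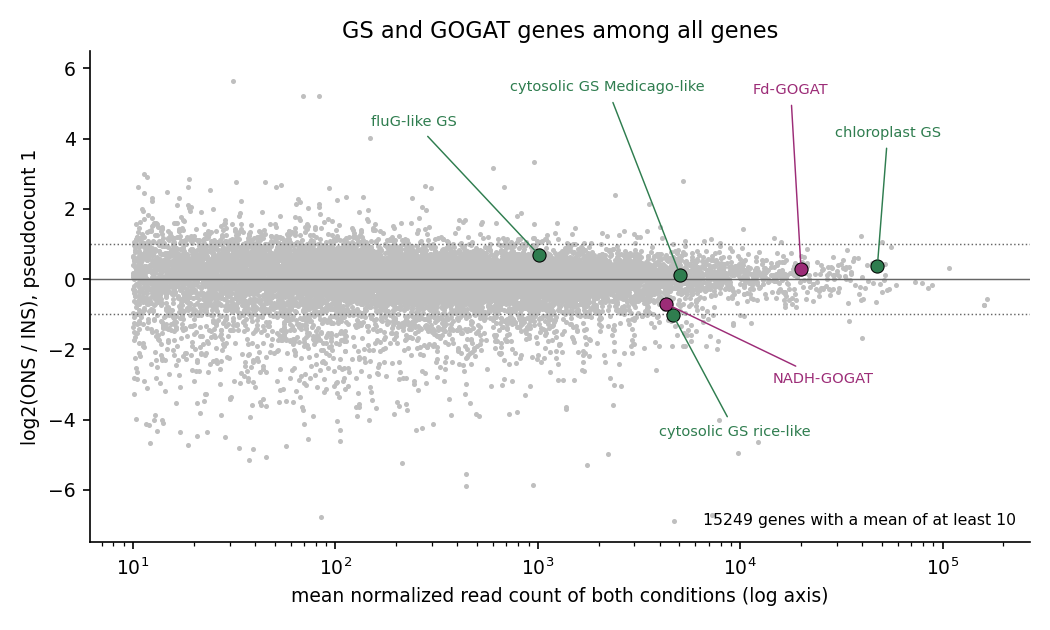
Log2 ratio of ONS to INS against the mean normalized read count of both conditions (log axis) for the 15249 genes with a mean of at least 10 (grey) and the 6 members (GS green, GOGAT purple), with dotted lines at 2-fold. The rice-like cytosolic GS sits at the lower dotted line with NADH-GOGAT just above it, and the other 4 members lie between 0.12 and 0.68.

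How far libraries of one condition differed was read from other genes. Over 3128 genes that had recovered reads and a mean no lower than 300, the median coefficient of variation was 19.3% over the 3 INS libraries and 18.0% over the 3 ONS libraries. In a limma fit on log2(normalized reads + 1) over the 10295 genes with recovered reads and a mean of at least 10, Benjamini-Hochberg adjusted p was at most 0.05 for 6.15%, 5.24% lower and 0.913% higher under ONS. With a change of more than 4-fold in addition it was 2.74%, 2.44% lower and 0.301% higher. The standard error of the log2 fold change had a median of 0.241 for the 3128 genes. Of the 107 among them with a log2 fold change within 0.15 of 1 in either direction, about the size seen for the rice-like gene, 48 passed (44.9%). Of the 372 within 0.15 of 0.7, the size seen for NADH-GOGAT and the fluG-like gene, 6 passed (1.61%). Of the 798 within 0.15 of 0.5, a range that holds the chloroplast GS at its lower end and lies above the Medicago-like gene and Fd-GOGAT, 0 passed. These counts describe genes with lower means than the members, and whether the members themselves differ beyond the spread of the libraries was not tested. Counting error was smaller, since a member's means rest on at least 1049 reads and its counting error was at most 3.09% of the mean. Such errors and intervals cover counting alone, since reads without molecular identifiers are not independent molecules.

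The genes around the cycle were read in the same table, and their log2 ratios are of condition means unless a limma value is named. Nitrate reductase and nitrite reductase, which make the ammonium that GS uses from nitrate, were far lower on glutamine. Nitrate reductase (LEMGIv51_A5_009812_1) stood at 18879 under INS and at 610 under ONS, a log2 ratio of -4.95. Nitrite reductase (LEMGIv51_A5_006998_1), a chloroplast enzyme, had 23540 and 948, a log2 ratio of -4.63. In counts, Fd-GOGAT was below nitrite reductase under INS and above it under ONS.

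Asparagine synthetase moves the amide group of glutamine to aspartate. Of its 6 genes, 3 were more than 2-fold lower under ONS, against 7.29% of all genes with a mean of at least 10. None was more than 2-fold higher, against 2.98%. The median log2 ratio was 0.04 for all those genes and -1.86 for the 6. The lowest ratio was that of LEMGIv51_A5_015132_1, whose means were 2572 (INS) and 195 (ONS), a log2 ratio of -3.71. The highest was that of LEMGIv51_A5_003834_1, with 709 and 905. Its INS libraries were at normalized read counts of 309, 892 and 925, and its ONS libraries at 736, 718 and 1261, so that the groups overlapped, and the deepest INS library was again the low one. The limma log2 fold change of this gene was 0.46 ± 0.40 (SE, adjusted p = 0.56). It was -0.06 without the deepest INS library, so its direction rests on that library, and 0.20 to 0.73 without each of the others. Of the 4 genes of the list with recovered reads, 3 fell by that test and none rose. Of all genes tested, 5.24% fell and 0.913% rose. The count was 2 with quantile normalization, without the mean-variance trend and without any library other than the deepest INS one.

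The other glutamine amidotransferases, with partner subunits of their reactions, use glutamine to make nucleotides, vitamin B6 and tryptophan precursors. Of 14 such genes in the table, 1 was more than 2-fold lower and 2 more than 2-fold higher under ONS, with a median log2 ratio of 0.27. The shares over all genes were 7.29% lower and 2.98% higher. One of the 2, LEMGIv51_A5_012547_1, a phosphoribosylformylglycinamidine synthase of purine synthesis, was at the limit, with a log2 ratio of 1.00, and at 0.97 after centring on the median gene. It is named here because of that value. The highest ratio was that of a carbamoyl-phosphate synthase, the enzyme that supplies carbamoyl phosphate for pyrimidines and arginine (LEMGIv51_A5_012593_1), with means of 1205 (INS) and 2476 (ONS), a log2 ratio of 1.04. The lowest was that of an amidophosphoribosyltransferase, which opens purine synthesis (LEMGIv51_A5_008210_1). Its INS libraries had normalized read counts of 464, 472 and 226, and its ONS libraries 302, 53.8 and 172, so the groups overlapped. The limma log2 fold change was -1.37 ± 0.54 (SE, adjusted p = 0.20). It was -0.69 without the ONS library at 53.8 and -1.92 to -1.19 without each of the others. The other amidophosphoribosyltransferase gene, LEMGIv51_A5_001793_1, lay the other way, with means of 815 (INS) and 1005 (ONS), a log2 ratio of 0.30. It is named here for that reason. None of the 6 genes of this list with recovered reads passed the limma test, against 6.15% of all genes tested. An unadjusted p under 0.05 was found for 2 of the 6, against 18.6% of all genes tested.

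Glutamate dehydrogenase and many transaminases release or use glutamate and 2-oxoglutarate. The group read here also holds genes annotated as aminodeoxychorismate lyase, which are not transaminases. Glutamate dehydrogenase (LEMGIv51_A5_014322_1), which can free ammonium from glutamate, stood at 1411 under INS and at 1925 under ONS, a log2 ratio of 0.45. Of 19 genes in this group with a mean of at least 10, none was more than 2-fold lower under ONS, against 7.29% of all genes. Their median log2 ratio was 0.24. In the group 1 gene was more than 2-fold higher, against 2.98% of all genes. That gene, LEMGIv51_A5_010726_1, is annotated as an LL-diaminopimelate aminotransferase, an enzyme of lysine synthesis, and had means of 678 (INS) and 1429 (ONS), a log2 ratio of 1.08. The other gene with this annotation, LEMGIv51_A5_013097_1, lay the other way, with means of 92.1 (INS) and 48.0 (ONS), a log2 ratio of -0.92. It is named here for that reason. The lowest ratio among means of at least 100 was that of a branched-chain amino acid transaminase (LEMGIv51_A5_010034_1), with 1456 and 771, a log2 ratio of -0.92. None of the 4 genes of this group with recovered reads passed the limma test, against the same 6.15% of all genes tested. An unadjusted p under 0.05 was found for 1 of the 4, against the same 18.6%. The median log2 ratio of the 4 GS genes was 0.24 as well, and that of the 2 GOGAT genes was -0.21.

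**Figure D4:**
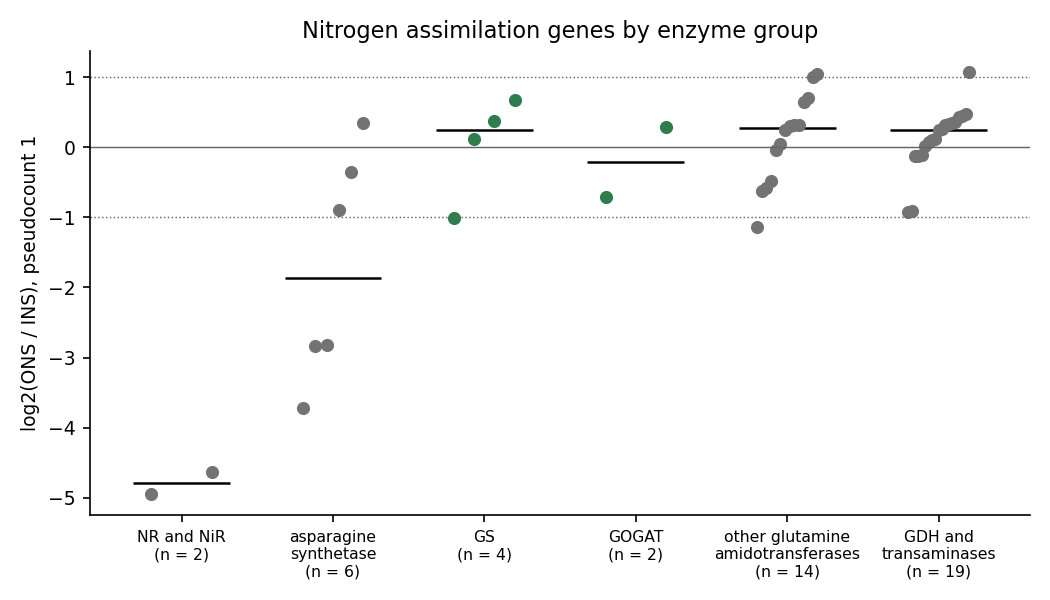
Log2 ratio of ONS to INS of single genes (points, sorted within a group) with the group median (bar) for 6 groups of nitrogen assimilation genes with a mean of at least 10, GS and GOGAT in green, with dotted lines at 2-fold. Nitrate and nitrite reductase (NR, NiR) lie below -4.6 and 3 of the 6 asparagine synthetase genes below -2.8, while the GS and GOGAT genes lie between -1.02 and 0.68.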

How the data were processed

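Polyadenylated RNA of 6 samples (INS and ONS, 3 each) was sequenced as paired-end reads of 101 bp from directional libraries. The authors aligned the reads with Bowtie and compared the conditions with DESeq, and the versions of these tools are not given in the sources used here. The deposited table holds, per gene, a signal in the form of the authors' mean of read counts divided by DESeq size factors, over all samples and per condition. Its fold changes, p-values, adjusted p-values and calls are the authors' comparison and were not used.

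Log2 ratios were log2(ONS + 1) minus log2(INS + 1). A condition mean is a weighted sum of whole reads of 3 libraries. The 3 weights were fitted, and means under 1000 were searched for the reads that give every printed digit. All 12633 INS and 12769 ONS means had a solution, 12589 and 11648 a single one, and 11386 genes (69.7%) had single solutions in both. Libraries were ordered by depth and cannot be matched to replicate numbers. In simulated data, searched with the known weights, 17244 of 20503 means under 1000 had a single solution. The true reads always give such a mean, so these solutions could only be exact. The fit of the weights was not simulated. Genes with a mean of at least 10 (10295) were tested on log2(normalized reads + 1) with limma 3.58.1 with a mean-variance trend and Benjamini-Hochberg adjustment. In simulation of this comparison on 10295 genes, 18% of genes lowered to 0.5 of their level and 24% of those raised 2-fold passed. The simulation gave every gene a dispersion of 0.08 and changed 200 genes. These settings were not fitted to the spread of the measured libraries, so the shares that passed belong to the simulation alone. Genes with recovered reads need a condition mean under 1000. A fit of the members, planned where reads in both conditions were recovered, was not possible. Python 3.11.15, numpy 2.4.6, scipy 1.17.1 and R 4.3.3 were used.

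Named genes were the 6 members, nitrate and nitrite reductase, glutamate dehydrogenase and, per other list, the highest and lowest ratio among means of at least 100. Any further gene is named with its reason. Likeness of patterns over the libraries was not computed, since no member has reads in both conditions. The members and lists were chosen with earlier results of these data known. No sequences of the genes were used here.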

Additional observations from a re-analysis of the deposited data

How the results depend on the processing

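The log2 ratio of each of the 6 members kept its direction with pseudocounts of 0 and 10, after centring on the median of genes whose mean reached 100, and after scaling to the sum of all genes. Leaving out each INS library, an alternative chosen after seeing the data, gave the fluG-like gene 0.38 to 0.90 against 0.68. Shares of the GS sum without this gene moved by less than 5 percentage points. Of 15249 genes 1566 were more than 2-fold apart, 1112 lower and 454 higher. This count was 809 (168 higher) where the mean had to reach 100 and 3849 (2137 lower, 1712 higher) at a 1.5-fold limit. The count beyond 4-fold, 384, was 184 where the mean had to reach 100. The limma count of 633 genes was 331 to 552 with 1 library left out, 331 without the INS library of middle depth, 421 without the deepest ONS library and 534 without the deepest INS library, of which 482 were among the 633. Those that were also more than 4-fold apart, 282, numbered 224 to 306. The counts for means that reach 100 cover only part of the genes, and the 1.5-fold limit takes in every gene beyond 2-fold. Each limma fit with a library left out rests on fewer libraries, and the cause of the differences between the limma counts was not tested. All other alternatives listed for these results stayed within their limits. No paired analysis was possible because the recovered libraries carry no replicate numbers. The members' means limit what can be read from them: they carry no spread over libraries, and levels are not per length.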
